A study of Mus musculus with 20 samples.

Results

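The mitochondrial beta-oxidation enzymes were taken as 10 genes, Acadl, Acadm, Acads, Acadvl, Hadha, Hadhb, Hadh, Acaa2, Etfdh and Decr1, and their probes were found by gene name among the non-control spots of the array. The 10 genes are 10 of 15303 tested gene names and had 11 probes among 39429 on the array, because Decr1 had 2. A probe was tested when its Cy5 signal stood well above background on 10 or more of the 20 arrays, which left 19206 probes. The 11 member probes passed on all 20 arrays. None was saturated on any array in either channel.

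RNA came from the quadriceps, a thigh muscle, of 20 male C57BL/6J mice aged 6 weeks. In the mHFD group (n = 10) the dam ate a semisynthetic high-fat diet with 40% of energy from fat, 23% from protein and 37% from carbohydrate, and in the mLFD group (n = 10) a low-fat diet with 10%, 23% and 67%. Dam age was given as 8 weeks and litter size as 5 to 7 in both groups. Dams were on their diet from 3 days before mating through lactation. Every pup, whatever its dam had eaten, was weaned onto the low-fat diet, caged singly and fasted for 2 h before sampling. Each Cy5-labelled sample was hybridised against 1 Cy3-labelled equimolar pool of all samples, so each value is a log2 ratio to that pool, and differences are mHFD minus mLFD.

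Beta-oxidation shortens a fatty acyl-CoA in repeated rounds inside the mitochondrial matrix. An acyl-CoA dehydrogenase opens each round, a hydratase and a hydroxyacyl-CoA dehydrogenase follow, and a thiolase releases acetyl-CoA. Electrons from the acyl-CoA dehydrogenases pass through the electron transfer flavoprotein and its dehydrogenase to the respiratory chain, and skeletal muscle relies on this route at rest and in fasting.

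The promoters of 5 genes are shown because these genes make up the 3 pairs with the highest correlation across arrays described further on. The sixth gene of those pairs, Acaa2, and Decr1 have no entry in the promoter table. The sequences are RefSeq windows of build GRCm38.p6, from 250 bases before the start to 50 after it, on the strand of the gene. Capitals mark matches on either strand to AGGTCA (the core motif of nuclear receptors), CCAAT (the CCAAT box), GGGCGG (the GC box) or the NRF1 palindrome.
Acadm (chr3:153944594-153944893, - strand): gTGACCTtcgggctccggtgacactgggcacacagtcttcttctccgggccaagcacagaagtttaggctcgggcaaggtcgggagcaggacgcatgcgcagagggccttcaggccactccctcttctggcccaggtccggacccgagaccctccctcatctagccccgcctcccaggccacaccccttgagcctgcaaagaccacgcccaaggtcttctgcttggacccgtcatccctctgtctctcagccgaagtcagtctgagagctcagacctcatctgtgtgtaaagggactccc
Hadhb (chr5:30155003-30155302, + strand): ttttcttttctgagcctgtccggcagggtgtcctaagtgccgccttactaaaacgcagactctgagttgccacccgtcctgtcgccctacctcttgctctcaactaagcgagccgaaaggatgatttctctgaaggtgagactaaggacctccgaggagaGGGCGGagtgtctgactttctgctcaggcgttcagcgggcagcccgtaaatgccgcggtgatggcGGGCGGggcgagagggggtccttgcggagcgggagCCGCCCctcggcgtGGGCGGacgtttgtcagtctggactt
Acadvl (chr11:70015379-70015678, - strand): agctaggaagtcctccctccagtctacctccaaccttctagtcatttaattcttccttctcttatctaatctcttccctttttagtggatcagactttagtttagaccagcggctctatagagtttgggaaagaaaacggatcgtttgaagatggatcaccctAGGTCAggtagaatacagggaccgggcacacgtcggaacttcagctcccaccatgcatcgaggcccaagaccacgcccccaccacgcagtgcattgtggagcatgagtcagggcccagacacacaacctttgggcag
Etfdh (chr3:79628718-79629017, - strand): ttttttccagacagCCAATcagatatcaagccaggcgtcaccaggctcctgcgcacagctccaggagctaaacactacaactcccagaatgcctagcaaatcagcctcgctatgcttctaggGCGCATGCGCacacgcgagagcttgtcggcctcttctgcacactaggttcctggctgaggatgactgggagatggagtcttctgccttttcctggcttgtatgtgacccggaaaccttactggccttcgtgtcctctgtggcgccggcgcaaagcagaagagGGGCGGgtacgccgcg
Acadl (chr1:66863260-66863559, - strand): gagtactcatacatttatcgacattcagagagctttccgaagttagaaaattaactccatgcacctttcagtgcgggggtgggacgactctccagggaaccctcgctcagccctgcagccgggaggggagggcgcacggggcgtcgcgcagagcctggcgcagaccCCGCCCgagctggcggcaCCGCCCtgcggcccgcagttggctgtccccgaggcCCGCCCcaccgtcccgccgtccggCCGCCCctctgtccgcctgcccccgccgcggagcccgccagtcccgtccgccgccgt

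Of the 8 members with an entry, 6 held GGGCGG, against 35.7% of all 32851 promoters in the table. The median GC content was 61.5% in the members' windows and 52.7% over all promoters, and its part in this count was not tested. AGGTCA was found in Acadm and Acadvl, 2 of 8, against 16.3% of all promoters, and CCAAT in Etfdh and Hadh, 2 of 8, against 37.4%. The NRF1 palindrome was found in 1 of the 8, Etfdh, against 0.971% of all promoters. The extended ERR motif was in 0 of the 8 windows, against 0.423% of all promoters, and the PPAR direct repeat in 0, against 0.0396%, and both of these contain the shorter AGGTCA. The TATA box TATAAA was in 0 of the 8, against 13.6%, and the cAMP response element in 0, against 1.79%. Hadha and Hadhb, which encode the alpha and beta subunits of the mitochondrial trifunctional protein, face away from each other on chromosome 5 with starts 273 bases apart, so their windows share 228 bases. The only GGGCGG of Hadha lies in the shared bases and is also a GGGCGG of Hadhb, so 1 site was counted for both. Neither Acadm and Hadhb nor Acadvl and Etfdh had a searched motif in common.

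None of the 10 enzymes passed the test between the maternal diets, and each 95% interval of the difference included 0. In the limma model over all 19206 probes, 0 of 10 members had an adjusted p under 0.05, against 1 probe of all (0.00521%), and 0 of 10 had an unadjusted p under 0.05, against 1371 probes (7.14%, of which 4.03% higher and 3.11% lower in mHFD). With slide as a fixed block 1 member, Decr1, and 1702 of all probes had an unadjusted p under 0.05. The groups overlapped for each of the 10 members, while 2 of all probes (0.0104%) had groups without overlap. The fitted differences were above 0 for 5 members and below 0 for 5, from -0.12 for Decr1 to 0.18 for Etfdh, with a median of -0.0032 against 0.0030 over all probes. The adjusted p of the members ranged from 0.702 to 0.943. The 95% intervals of the 10 fold changes, mHFD over mLFD, lay together between 0.838 and 1.31. For 8 of the 10 members the mean was below 0 in both groups, and since 1 dye always carried the pool only differences between arrays are read.

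**Figure D1:**
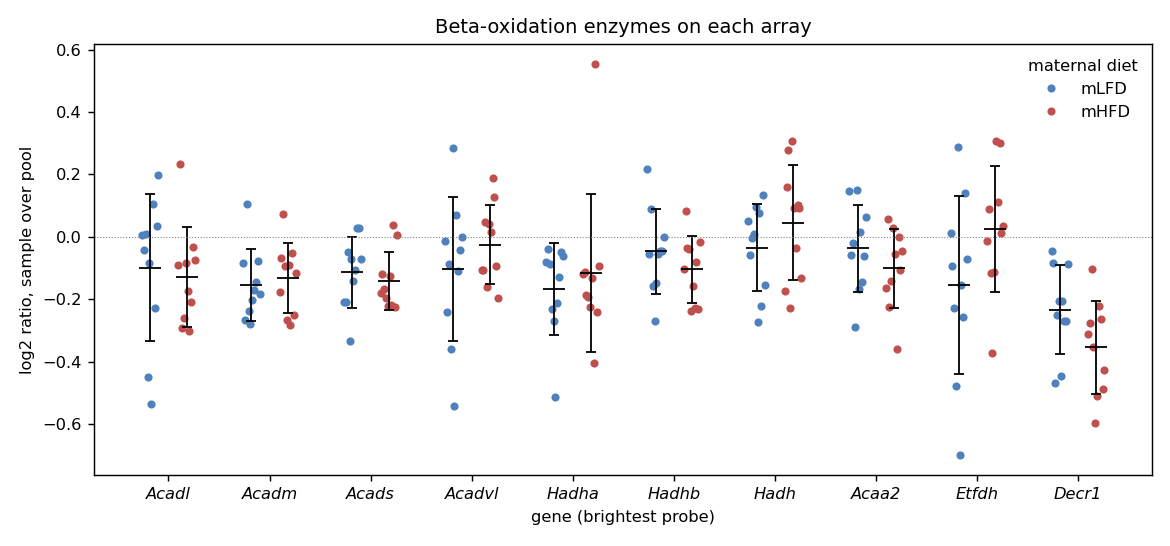
Log2 ratio of sample to pool (vertical axis) for the brightest probe of each enzyme (horizontal axis) on each of 20 arrays, mLFD in blue and mHFD in red, with the mean and SD of each group (n = 10) in black. The groups overlap for every enzyme, and the value of Hadha at 0.56 in mHFD lies apart from the rest of its group.

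The 4 acyl-CoA dehydrogenases divide the substrates by chain length. Acadvl, which acts on very long chains, ranged in mHFD from -0.20 to 0.19 with a median of -0.04, and in mLFD from -0.54 to 0.28 with a median of -0.06. The mLFD values spread wider and enclosed those of mHFD. The difference was 0.08 (SE 0.079, 95% interval -0.08 to 0.24, limma adjusted p = 0.818). With the position of the array on its slide as a covariate it was -0.01, and its slope along the 4 positions was -0.09 per step (SE 0.035, limma adjusted p = 0.172).

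Acadl, the long-chain enzyme, ranged in mHFD from -0.30 to 0.23 with a median of -0.13, and in mLFD from -0.53 to 0.20 with a median of -0.02. The low end of mLFD came from 2 arrays, and the high end of mHFD from 1. The difference was -0.03 (SE 0.085, 95% interval -0.21 to 0.15, limma adjusted p = 0.943).

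Acadm, the medium-chain enzyme whose loss causes the commonest inherited defect of this pathway in people, ranged in mHFD from -0.28 to 0.07 with a median of -0.10, and in mLFD from -0.28 to 0.11 with a median of -0.18. Both groups covered nearly the same span. The difference was 0.02 (SE 0.053, 95% interval -0.09 to 0.13, limma adjusted p = 0.935). Acads, the short-chain enzyme, ranged from -0.22 to 0.04 in mHFD and from -0.33 to 0.03 in mLFD, with medians of -0.17 and -0.09. Its difference of -0.03 (SE 0.050, 95% interval -0.13 to 0.07, limma adjusted p = 0.907) had the smallest SE of the 10, and only 2 of 10 mHFD arrays lay above the mLFD mean.

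The trifunctional protein carries the later steps for long chains. Hadha, its alpha subunit with hydratase and dehydrogenase activity, ranged in mHFD from -0.41 to 0.56 with a median of -0.16, and in mLFD from -0.51 to -0.04 with a median of -0.11. The median was lower in mHFD and the mean was higher, and mHFD 8 stood far above the other 9. The difference was 0.05 (SE 0.087, 95% interval -0.13 to 0.23, limma adjusted p = 0.897), and -0.02 without mHFD 8. Hadhb, the beta subunit with thiolase activity, ranged from -0.24 to 0.08 in mHFD and from -0.27 to 0.22 in mLFD, with medians of -0.09 and -0.05. Its difference was -0.06 (SE 0.056, 95% interval -0.17 to 0.06, limma adjusted p = 0.815), and in the Cy5 signal alone it was 0.06.

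Hadh, the dehydrogenase of medium and short chains, ranged in mHFD from -0.23 to 0.31 with a median of 0.09, and in mLFD from -0.27 to 0.13 with a median of 0.0019. On 3 mHFD arrays it lay above every mLFD array. The difference was 0.08 (SE 0.070, 95% interval -0.07 to 0.23, limma adjusted p = 0.80). With position as a covariate it was 0.0041, and the slope along the positions was -0.08 per step (SE 0.032, limma adjusted p = 0.224).

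Acaa2, the thiolase of the matrix, ranged in mHFD from -0.36 to 0.06 with a median of -0.08, and in mLFD from -0.29 to 0.15 with a median of -0.04. The difference was -0.06 (SE 0.060, 95% interval -0.19 to 0.06, limma adjusted p = 0.811). The mean was lower in mHFD on each of the 5 slides, with slide differences from -0.0032 to -0.12. The Acaa2 probe was printed at 10 spots on every array, which gives a measure of spot error that the other members lack. The pooled SD between single spots within an array was 0.247, which gave an SE of 0.078 for the mean of 10 spots. The SD of these spot means between arrays of 1 group was 0.134, larger than that SE. Taken 1 spot at a time, the difference ran from -0.22 to 0.04 and was below 0 for 8 of 10 spots.

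Etfdh, which passes the electrons on to ubiquinone, had the highest difference. It ranged in mHFD from -0.37 to 0.31 with a median of 0.02, and in mLFD from -0.70 to 0.29 with a median of -0.12. The mLFD mean was exceeded on 9 of 10 mHFD arrays, and the highest mLFD array on 2. The difference was 0.18 (SE 0.102, 95% interval -0.03 to 0.39, limma unadjusted p = 0.0953, adjusted p = 0.712), and permuting the arrays gave a two-sided p of 0.126. With both groups pooled, its residual SD of 0.248 was the widest of the 10, although in mHFD alone Hadha had a wider SD (0.25 against 0.20). Without mLFD 6, its lowest array, the Etfdh difference was 0.12, and with any 1 array left out it ran from 0.12 to 0.23 with a lowest limma adjusted p of 0.598. With position as a covariate the Etfdh difference was 0.12 (SE 0.113, limma unadjusted p = 0.306). From the scanner software's log ratio it was 0.11 (SE 0.079, limma unadjusted p = 0.180).

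Decr1, the reductase needed for unsaturated fatty acids, had the lowest difference, on its brighter probe. That probe ranged in mHFD from -0.60 to -0.10 with a median of -0.33, and in mLFD from -0.47 to -0.05 with a median of -0.23. On 3 mHFD arrays it lay below every mLFD array. The difference was -0.12 (SE 0.064, 95% interval -0.25 to 0.01, limma unadjusted p = 0.0728, adjusted p = 0.702, permutation p = 0.0807), and the mean was lower in mHFD on 4 of 5 slides. With slide as a fixed block the unadjusted p was 0.0493 (limma adjusted p = 0.561). Without slide 2 the difference was -0.18 (limma unadjusted p = 0.0126, adjusted p = 0.731). Slide 2 was the only slide on which the mean was higher in mHFD (0.13), so leaving it out had to move the difference farther below 0. Some other alternatives lay farther below 0, such as -0.149 without mHFD 3 (limma unadjusted p = 0.026, adjusted p = 0.768) and -0.135 in the authors' table (limma unadjusted p = 0.177). Others lay nearer to 0, such as -0.09 from the scanner software's log ratio (limma unadjusted p = 0.194) and -0.08 without slide 5 (limma unadjusted p = 0.291). In Cy5 alone the difference was -0.04 (limma unadjusted p = 0.648), and in Cy3 alone, which carried the pool, it was 0.05. The dimmer Decr1 probe differed by 0.03 (SE 0.062, limma adjusted p = 0.917). The average of both probes differed by -0.05 (SE 0.047, limma adjusted p = 0.826), less far below 0 than Acaa2. Across the 20 arrays the probes of this gene had Pearson r = -0.09 (permutation p = 0.725) and Spearman rho = -0.12 (permutation p = 0.630) after group means were removed, and r = -0.06 without the 2 arrays farthest from the median.

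**Figure D2:**
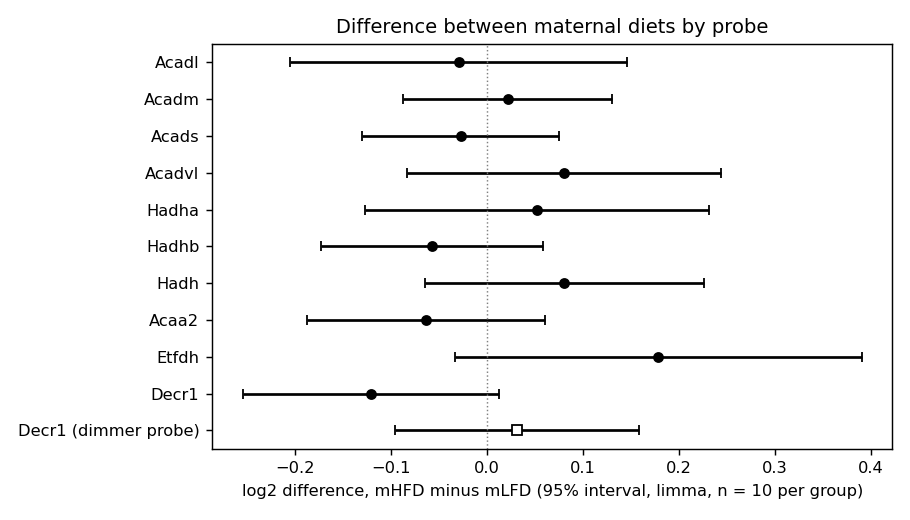
Log2 difference, mHFD minus mLFD (horizontal axis), for each of the 11 probes (vertical axis), with the 95% interval from limma, n = 10 per group. The filled circles are the brightest probe of each gene and the open square is the dimmer Decr1 probe. Every interval includes 0.

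The brightest probes lie, in build mm9, at chr1:66877673-66877732 for Acadl, chr3:153585670-153585729 for Acadm, chr5:115560887-115560946 for Acads, chr11:69823722-69823781 for Acadvl, chr5:30446215-30446274 for Hadha and chr5:30510925-30510984 for Hadhb. Those of Hadh, Acaa2 and Etfdh lie at chr3:130936889-130936948, chr18:74965691-74965750 and chr3:79407806-79407865. The brighter and dimmer Decr1 probes lie at chr4:15846075-15846134 and chr4:15844647-15844706. Exon and UTR positions are not given, since no gene models of that build were used here.

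The genes around the pathway also had 0 calls at adjusted p 0.05 in the limma model, in each of the 8 lists. In the carnitine shuttle, which carries acyl groups into mitochondria, 4 of 7 genes were above 0, with Cpt1c at -0.11 (SE 0.048) and Cpt1a, an entry enzyme of the shuttle, at 0.15 (SE 0.074). Of 11 measured acyl-CoA synthetases and thioesterases 7 were above 0, with Acot13 at 0.23 (SE 0.105) and Acot9 at -0.09 (SE 0.053). Of 15 measured other mitochondrial enzymes 7 were above 0, with Ech1, a dienoyl-CoA isomerase, at -0.14 (SE 0.065), and Etfa, a subunit of the flavoprotein that hands electrons to Etfdh, at 0.19 (SE 0.095). Of 12 peroxisomal genes 4 were above 0, with Scp2 at -0.08 (SE 0.045).

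The fuel-switch list, genes known to move with fatty acid supply, had 6 of 11 genes above 0 and a median difference of 0.03. Its members at unadjusted p under 0.05 were 4, all above 0, where 4.03% of all probes were so. They included Ucp3, a mitochondrial carrier of muscle, at 0.24 (SE 0.10), Angptl4 at 0.44 (SE 0.190) and Pdk4 at 0.47 (SE 0.205), each with a limma adjusted p of 0.690. Of the 5 ketone body enzymes 2 were above 0, and Bdh2 was at -0.12 (SE 0.084). Among 20 regulators 14 were above 0, with the coactivator Ppargc1a at 0.34 (SE 0.129) and the receptor Esrra at 0.17 (SE 0.080). The reference list of citric acid cycle and respiratory chain genes had 10 of 20 above 0 and a median of 0.0030, with Sdhb at -0.23 (SE 0.120) and Uqcrc2 at -0.11 (SE 0.061). Nr4a1, the gene in the title of the study, was at 0.56 (SE 0.131, limma adjusted p = 0.679).

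Markers of the tissue were present, with 10 of 10 skeletal muscle fibre genes and 8 of 8 slow-fibre genes measured. Slow-fibre markers were below 0 in 7 of 8 genes with a median difference of -0.20, and adipocyte markers in 7 of 7 measured genes with a median of -0.33. Fibroblast and tendon markers were below 0 in 7 of 8 genes with a median of -0.18, and 3 of them, Col1a1, Tnmd and Fmod, had an unadjusted p under 0.05, where 3.11% of all probes were lower at that level. Brown adipocyte markers were below 0 in 3 of 4 measured genes with a median of -0.43, with Ucp1 at -0.74 (SE 0.531) and Cidea at -0.73 (SE 0.488). None of these 4 lists had a gene at adjusted p under 0.05 in the limma model. They had the lowest medians of the marker lists. Above 0 were 7 of 10 skeletal muscle fibre genes (median 0.02), 4 of 6 fast-fibre genes (0.02) and 5 of 8 endothelial genes (0.0037). The macrophage, erythroid, Schwann cell and cardiac muscle lists had medians of -0.06, -0.05, -0.05 and -0.09. The mean log2 ratio of the slow-fibre list ranged from -0.66 to 0.30 in mHFD and from -0.70 to 0.60 in mLFD, and that of the adipocyte list from -0.68 to 0.24 and from -0.74 to 0.64. For the fibroblast and tendon list it ranged from -0.46 to -0.04 and from -0.31 to 0.32, and for the brown adipocyte list from -1.75 to 0.38 and from -1.54 to 1.36. After group means were removed, the mean of each marker list was set beside the mean of the 10 enzymes. The r was 0.37 for slow fibre, 0.16 for adipocyte, 0.02 for fibroblast and tendon and 0.28 for brown adipocyte. Over the other lists it ran from -0.24 for macrophage to 0.46 for fast fibre. The part of the marker lists in the enzyme values was not tested. In whole muscle, fewer cells of a type and less RNA per cell cannot be told apart.

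Within groups the enzymes moved together from array to array to a modest degree. After each group's mean was removed, 40 of the 45 pairs had a positive Pearson r over the 20 arrays. The median r was 0.31 and the median Spearman rho 0.32. The mean r over all pairs of tested probes was 0.0044, but loess centres each array, which holds that mean near 0. It is therefore no independent baseline for the enzymes. An r above 0.5 was found for 7 pairs. With each enzyme set against 18792 probes, the share with r above 0.5 ran from 1.23% for Decr1 to 6.62% for Etfdh. The share with a positive r ran from 47.5% for Acadm to 52.5% for Hadhb, and the same centring tends to keep this share near an even split. By permutation within groups 3 of 45 pairs had an adjusted p under 0.05 for r, and 1 for rho. The median r was 0.16 within mHFD and 0.40 within mLFD, a difference that was not tested.

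Acadm and Hadhb had r = 0.72 (permutation p = 7.9e-04, adjusted over 45 pairs 0.0136) and rho = 0.81 (permutation p = 5.0e-05, adjusted 0.00225). The r was 0.75 in mHFD, 0.69 in mLFD and 0.76 without mHFD 3 and mLFD 3, the arrays farthest from the Acadm median. Acadl and Acaa2 had r = 0.71 (permutation p = 9.1e-04, adjusted 0.0136) and rho = 0.63 (permutation p = 0.00391, adjusted 0.0687), and r = 0.60 without mLFD 4 and mLFD 6. Acadvl and Etfdh had r = 0.76 (permutation p = 4.4e-04, adjusted 0.0136) and rho = 0.61 (permutation p = 0.00763, adjusted 0.0687). This last r was 0.45 in mHFD and 0.88 in mLFD, and 0.53 without mLFD 5 and mLFD 6. Hadha and Hadhb, the pair with overlapping promoter windows, had r = 0.40 (permutation p = 0.0712, adjusted 0.262) and rho = 0.58 (permutation p = 0.00662, adjusted 0.0687), and r = 0.58 without mLFD 6 and mHFD 8. With slide means removed as well, r was 0.82 for Acadm with Hadhb, 0.77 for Acadl with Acaa2 and 0.84 for Acadvl with Etfdh.

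**Figure D3:**
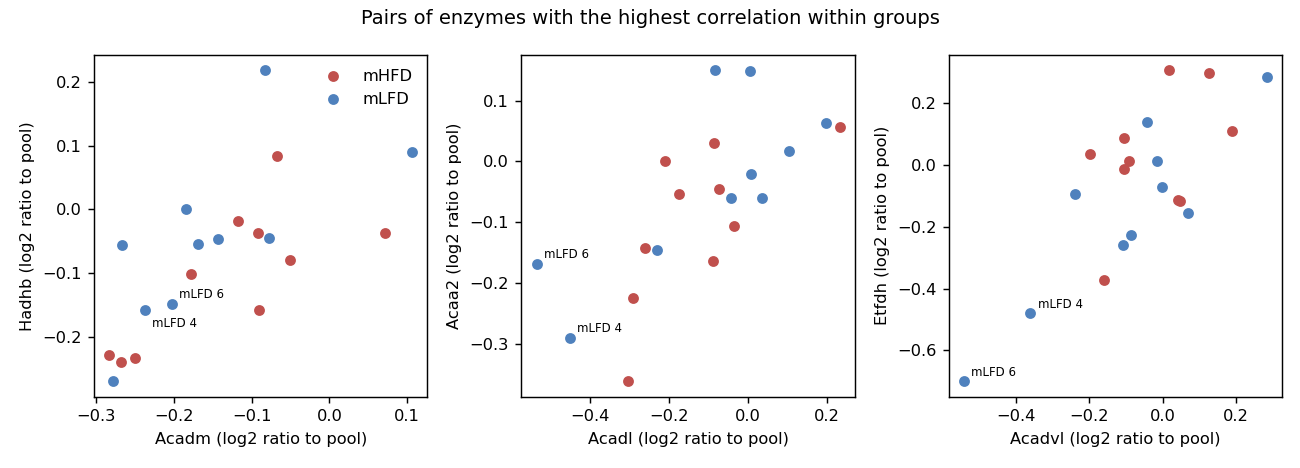
Log2 ratio to the pool of 1 enzyme against another on 20 arrays, before group means were removed, for Acadm with Hadhb (left), Acadl with Acaa2 (middle) and Acadvl with Etfdh (right), mHFD in red and mLFD in blue. The labelled arrays mLFD 4 and mLFD 6 lie at the low end of the middle and right panels and within the cloud of the left panel.

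The shared movement was carried in part by 2 arrays. The mean over the 10 enzymes was lowest on mLFD 6, at -0.37, where 10 of 10 enzymes lay below their own median over arrays, and next lowest on mLFD 4, at -0.28, with 9 of 10. It was highest on mHFD 8, at 0.05. Without mLFD 4 and mLFD 6 the median r of the 45 pairs was 0.11, and without mLFD 6 alone it was 0.21.

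The same pairs were read in each dye alone, an alternative chosen after the data were seen. Each dye was read from the scanner software's processed signal, after its balancing of the dyes. These values were scaled to the upper quartile of each array, without loess. Cy3 carried 1 pool throughout, but the balancing may draw on both dyes, so Cy3 values may hold some sample signal. The single-dye values and the loess ratios therefore differ in processing as well as in dye. In Cy3 alone the median r of the 45 pairs was 0.26 with 34 positive, and in Cy5 alone it was 0.22 with 39 positive. Acadm with Hadhb had r = 0.77 in Cy3 alone and 0.55 in Cy5 alone. Acadl with Acaa2 had 0.37 and 0.28. Acadvl with Etfdh had 0.16 in Cy3 alone and 0.72 in Cy5 alone. Among the 10 spots of the single Acaa2 probe, the 45 spot pairs had a median r of 0.34, from -0.33 to 0.91. Each of the other 9 enzymes was read from 1 spot of its brightest probe. The part of array-to-array error in the correlations between enzymes was not tested.

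**Figure D4:**
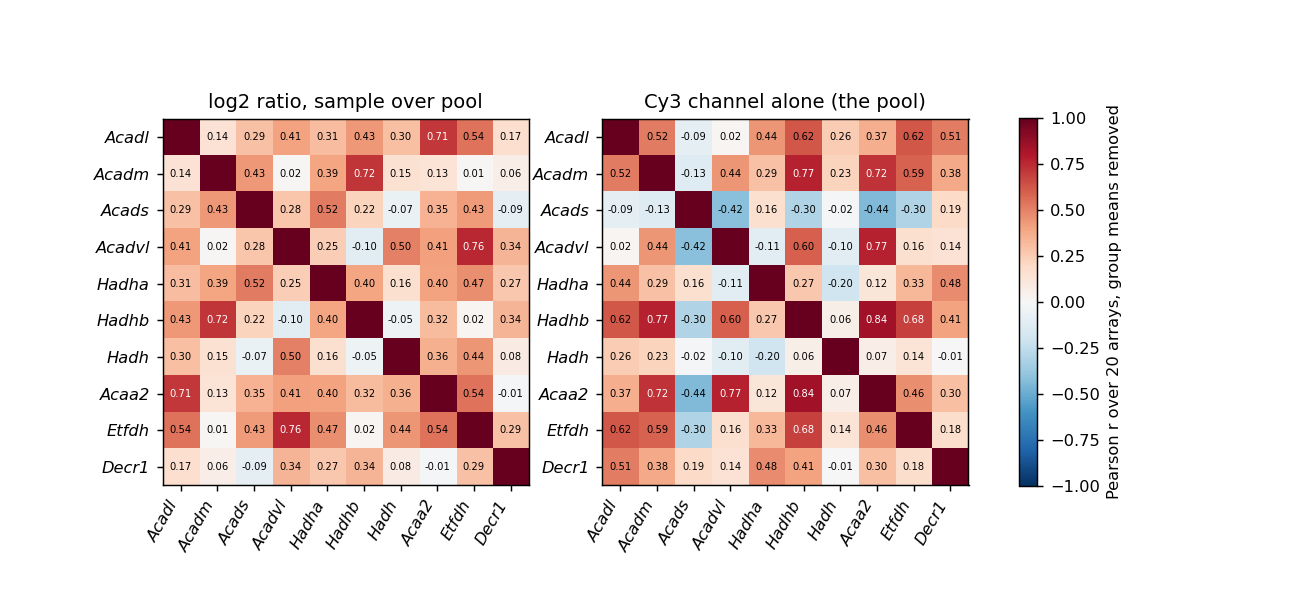
Pearson r between enzymes over 20 arrays with group means removed, coloured from -1 (blue) to 1 (red). The left panel is from the loess log2 ratio of sample to pool. The right panel is from the Cy3 signal of the pool alone, as balanced by the scanner software and without loess. Acadm with Hadhb is high in both panels (0.72 and 0.77), and Acadvl with Etfdh is high in the left panel and low in the right (0.76 and 0.16).

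The level of correlation also moved with the scaling of the arrays. The median r was 0.30 from the scanner software's log ratio and 0.61 in the authors' deposited table. With arrays centred on their median and no loess it was 0.94, with each of the 45 pairs at 0.89 or above. Over the 20 arrays, the mean of the 10 enzymes had r = -0.33 with the log2 factor by which the software scaled Cy5 and 0.26 with the number of probes above background, which ranged from 15506 to 23410. For single enzymes the r with the Cy5 factor was -0.58 for Acadl and -0.54 for Hadhb, and 0.24 for Hadh. These last correlations are given as a description, with no test.

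**Figure D5:**
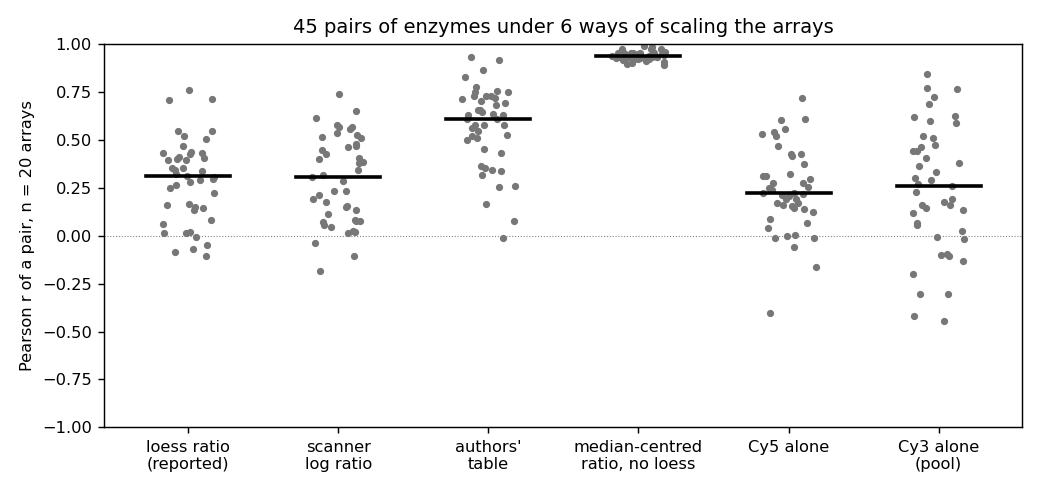
Pearson r (vertical axis) of each of the 45 pairs of enzymes over 20 arrays, as points, with the median as a bar, under 6 ways of scaling the arrays (horizontal axis). The medians run from 0.22 in Cy5 alone to 0.94 with median centring and no loess.

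Outside the members, the genes most like the mean of the 10 enzymes over 20 arrays were Fam53c (r = 0.83), Sppl2a (0.81), Mapkap1 (0.80), Ube2e3 (0.76) and Ttc13 (0.76). Within mHFD their r ran from 0.47 for Mapkap1 to 0.65 for Ube2e3, and within mLFD from 0.81 for Ttc13 to 0.93 for Mapkap1. The lowest were Supt6 (-0.86), 1700016H13Rik (-0.86) and a probe with no gene name (-0.86). None of these 5 high genes was in a list of the pathway. Of the genes compared, 4.13% had r above 0.5 with the member mean. In the lists this was 3 of 7 for the carnitine shuttle, led by Slc25a20, the carnitine-acylcarnitine carrier (0.66), and 4 of 11 for the fuel-switch genes, led by Fabp3 (0.64). It was 4 of 20 for the mitochondrial reference list, led by Ndufa9 (0.66), and 1 of 15 for the other mitochondrial oxidation enzymes, where Etfa had 0.56 and Acad10 had -0.64. It was 3 of 11 for the synthetases and thioesterases, 2 of 20 for the regulators, 2 of 12 for the peroxisomal genes and 0 of 5 for the ketone body enzymes. Outside the pathway, such values were also found for contractile genes, with 2 of 10 skeletal muscle fibre genes above 0.5, led by Acta1, the skeletal actin (0.71), and 1 of 6 fast-fibre genes, Myh1 (0.70). These likenesses were computed over probes with values on at least 16 arrays, a limit set after the data were seen, and have no test.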

How the data were processed

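The deposited scanner files hold spot intensity for both dyes, flags and a log10 ratio from the authors' scanner software (Agilent Feature Extraction 10.7.3.1, per the submitters' processing notes), which subtracts background and balances the dyes. A second deposited file gives log2 values for 19377 spots, with a median of 7.54 in every column. Its gene-centred values correlated at 0.965 or above with Cy5 corrected by Cy3, and its scale, centring and background correction stay unknown. How it was made is not given in the sources used here.

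Background was corrected on mean signals by normexp with an offset of 50, and ratios were normalized by loess within arrays, with control and non-uniformity outlier spots at weight 0. The 1377 control spots and outlier spots were left out and spots of a probe averaged. Probes with Cy5 signal well above background on 10 or more of 20 arrays were fitted with limma 3.58.1 in R 4.3.3 (maternal diet only, two-sided, Benjamini-Hochberg, adjusted p 0.05). The brightest probe stood for a gene. Names were updated through RefSeq for 27234 probes. Single probes and correlations were permuted 100000 times (numpy and scipy in Python), and steps were tested on simulated data. The arrays lay on 5 slides of 4, mHFD at positions 1 and 3 and mLFD at 2 and 4.

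The members and gene lists were chosen with earlier results of these data known. Named genes were every member, the 2 of smallest p in each pathway list and in 2 of the marker lists, the 5 most and 3 least like the member mean, and Nr4a1. Angptl4, Pdk4, Fmod and the genes leading each list in likeness were named after their values were seen. Some genes that this rule names are not reported here. Precision is set by how many arrays there are. The labels name no litter, and as many as 4 siblings may be in 1 group, which would make p-values too small. The alternatives tried were the average of a gene's probes, background correction, normalization, the dim-probe filter, outlier spots, slide, position, replicate number, the authors' table and leaving out arrays and slides.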

Additional observations from a re-analysis of the deposited data

Results flagged for a closer look

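In 4 of the 22 combinations of a member probe and a group of 10, 1 array lay far from the other 9. The nominal rate of the rule is 1 in 20, but the share over all tested probes was not computed. Whether 4 of 22 is unusual on these arrays is therefore not known. The gap to the nearest array was 0.676 of the whole range for Hadha on mHFD 8, which was high at 0.56 beside a next value of -0.09. It was 0.511 for Hadha on mLFD 6, low at -0.51 beside -0.27. It was 0.498 for Acadl on mHFD 2, high at 0.23 beside -0.03, and 0.479 for Acadm on mLFD 3, high at 0.11 beside -0.08. The critical share for 10 arrays was exceeded in each case, and mLFD 6 is also the array on which the mean of the enzymes was lowest.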

How the results depend on the processing

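No member had an adjusted p under 0.05 in any of 39 alternatives, where the lowest was 0.487. The median difference of the members ran from -0.0216 without mHFD 8 to 0.0226 without slide 5, and from -0.0216 to 0.0162 with 1 array left out. Each shift was smaller than the SD between single arrays (0.097). That SD is wider than the error of a mean of 10 arrays, so staying under it shows little. The count of all probes at adjusted p under 0.05, which was 1, was 0 with the scanner software's log ratio, median centring, scaling between arrays, Cy5 alone, the authors' table, slide as a fixed block, position as a covariate, and without slide 1, 2, 3 or 4. It ran from 0 to 1 with 1 array left out. At unadjusted p under 0.05 the count of 1371 was 97 with median centring, 546 in the authors' table and 2368 with no filter.

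Some small differences changed sign. In Cy5 alone Acadl was 0.0113, Acadvl -0.00019, Hadhb 0.0613, Hadh -0.0048 and the dimmer Decr1 probe -0.0364. With the scanner software's log ratio Hadh was -0.000735 and the dimmer Decr1 probe -0.0744, and with scaling between arrays that probe was -0.0154. Acadm was -0.0035 with median centring and -0.02 in the authors' table, and Acadvl was -0.0133 with position as a covariate. Acadl was 0.0112 without slide 4 and 0.0055 without slide 5. With 1 array left out, Acadl ran from -0.0781 to 0.0033 (without mLFD 10), Acadm from -0.0015 (without mHFD 3) to 0.0501 and Hadha from -0.0224 (without mHFD 8) to 0.0844. Acaa2, Acads, Etfdh and the brighter Decr1 probe kept their sign in every alternative run.

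The median correlation of 0.31 was 0.94 with median centring and no loess, 0.61 in the authors' table and 0.11 without mLFD 4 and mLFD 6, and ran from 0.21 to 0.34 with 1 array left out. The cause of these shifts was not tested.

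Replicate numbers are shared by the groups, but same-numbered samples correlated from -0.0098 to 0.354, 8 of 10 above 0.1, and 3 of 10 mHFD samples correlated best with their own number, so the numbers were not used for pairing. A replicate block gave 2 probes in place of 1.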
